A study of Drosophila melanogaster with 2 samples.

Results

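The TALE homeobox genes of Drosophila melanogaster are described here at their own loci, as bound or not bound by the tagged TALE protein CG11617. The 8 genes were taken by symbol from a list that holds CG11617 itself, the Iroquois genes ara, caup and mirr, the tandem pair achi and vis, and hth and exd. All 8 were found among the 13945 protein-coding genes annotated on the 6 chromosome arms. Chromatin immunoprecipitation and sequencing (ChIP-seq) with an anti-GFP antibody was done on whole adult flies, males and females pooled, of a transgenic line that carries a CG11617-GFP fusion with the tag at the C terminus. The age of the flies is given as unknown. The sources used here do not name the background strain, the sequence that drives the transgene or the number of flies per sample. There was 1 group with 2 biological replicates, numbered 2 and 3, and sonicated fragments of 200 to 800 bp. No untagged or input sample was analysed here, and no test between samples was possible.

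TALE proteins carry a homeodomain, a DNA-binding fold, with an extended loop between its first helices. The class is old, and in flies its members pattern appendages, eyes, sensory organs and segments during development. The exd protein, the fly relative of PBX, binds DNA together with Hox proteins. The hth protein, the relative of MEIS, binds exd and brings it into the nucleus. The Iroquois proteins position sensory bristles and wing veins and mark the dorsal eye. The achi and vis proteins, relatives of TGIF, are needed for sperm development. CG11617 is an uncharacterised member.

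An entry is a region in one of the authors' peak lists, its signal is the authors' value for that entry, and its rank runs from 1 for the highest signal in a list. The candidate lists of the pooled data and of each replicate hold 30000 entries each, background included. The authors' optimal set was derived with a filter on the irreproducible discovery rate (IDR), and holds 5777 entries with a pooled signal of 163 or more. Every IDR entry at the TALE genes had the same rank in this set as in the pooled list, down to rank 5673. To that rank the set is thus the top of the pooled list. Membership is read here as a level of pooled signal, not as agreement of the replicates on an entry. For example, an IDR entry at CG11617 had rank 7100 in replicate 2 and 2605 in replicate 3. Lists are not scaled to each other. Replicate 3 signal was a median 2.21 times that of replicate 2 over the 5760 IDR entries found in both, a log2 ratio of 1.14, and ratios below are given relative to that common shift (SD of 0.42 on the log2 scale over entries). An entry's replicate value is that of the strongest overlapping entry in the replicate's list. The lists hold no read counts, so the depth is unknown. An entry was assigned to a promoter when its summit lay within 500 bp of a transcription start site (TSS). The locus of a gene is its body with 10 kb on each side. Coordinates are dm6, counted from 1.

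Promoter binding in the IDR set was found at 3 of the 8 TALE genes, CG11617, achi and hth, against 30.0% of all protein-coding genes and 39.4% of the 6025 genes whose length lies within the members' range. At ara, caup, mirr, vis and exd no IDR summit lay within 500 bp of a TSS. IDR summits in the locus were found for 4 of 8 genes, against 66.6% of all genes and 74.4% of genes in that length range. These were the same 3 genes and vis. The vis and achi loci overlap and hold the same 4 IDR summits, none of them nearest to the vis TSS. In the pooled list all 8 had a promoter summit, against 61.6% of all genes, and all 8 had a summit in the locus, against 90.3%. The share of members with an IDR promoter entry was thus near the background, and nothing about the class as a whole is read from it. In whole flies, binding in few cells and weak binding in many cells cannot be told apart.

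The signals behind these counts covered a wide range. The strongest promoter entry had a pooled signal of 330.3 at CG11617, 177 at hth and 165 at achi. It was 137 at mirr, 48.4 at exd, 40.2 at vis, 38.8 at caup and 36.9 at ara. Among the 8588 genes with a pooled promoter entry, CG11617 stood at place 1922, with 22.4% of these genes above it. The genes hth, achi and mirr stood near the middle, with 44.8%, 47.9% and 56.1% of genes above them. The genes exd, vis, caup and ara stood near the end, with 90.1%, 94.1%, 94.7% and 95.6% of genes above them. The gap between mirr and exd in this order was larger than any between neighbours within the lower group of 4.

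**Figure D1:**
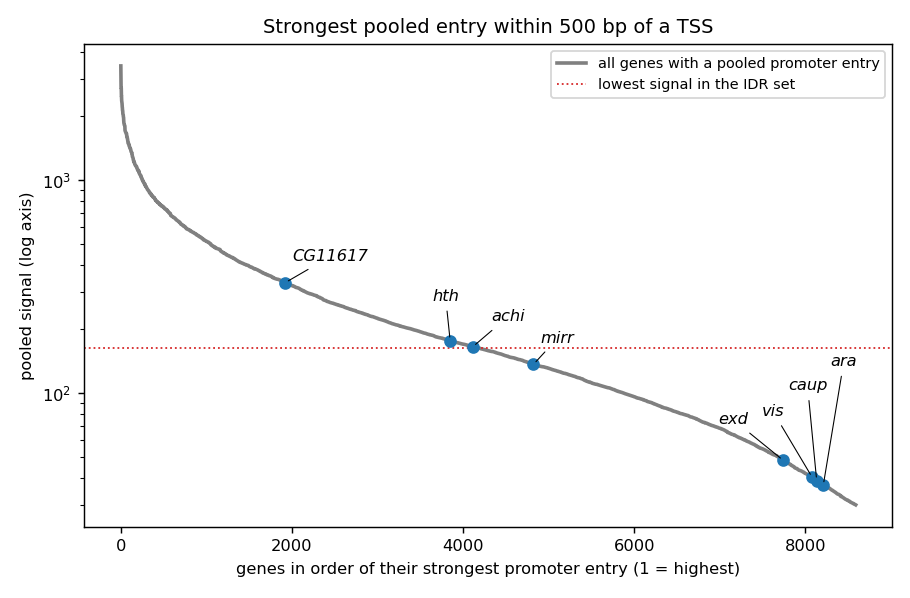
The strongest pooled entry within 500 bp of a TSS (log axis) is plotted for every gene that has such an entry, in falling order. Points mark the TALE genes, and the dotted line is the lowest signal in the IDR set, 163. CG11617, hth and achi lie above the line, mirr lies just below it at 137, and exd, vis, caup and ara lie at 48.4 or lower.

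Replicate lists gave similar counts. In replicate 2, 6 of 8 members had a promoter summit, against 59.8% of all genes, and ara and vis had none there, although the pooled ara entry overlapped a replicate 2 entry of signal 15.5 whose summit lay farther away. In replicate 3 all 8 had one, against 61.6%. The ara entry of replicate 3 had a signal of 22.1 at rank 28973 and the vis entry a signal of 24.3 at rank 26681 of 30000. Over the 11 distinct IDR entries in the 8 loci, each of which was found in both replicate lists, the log2 ratio of replicate 3 to replicate 2 lay between -0.64 and 0.92 of the common shift, with a median of -0.01. Over the 69 distinct pooled entries, 55 were found in both replicate lists, 4 in replicate 2 alone, 7 in replicate 3 alone and 3 in neither. Replicates weighed differently at some genes. With the 5777 highest entries of replicate 2 in place of the IDR set, mirr joined the 3 genes with a promoter entry. That made 4 of 8, against 28.1% of all genes. In the locus 6 of 8 members had an entry, mirr and exd being added, against 65.4% of all genes. With the 5777 highest entries of replicate 3, achi was lost and 2 genes with a promoter entry remained, CG11617 and hth, against 30.3% of all genes.

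**Figure D2:**
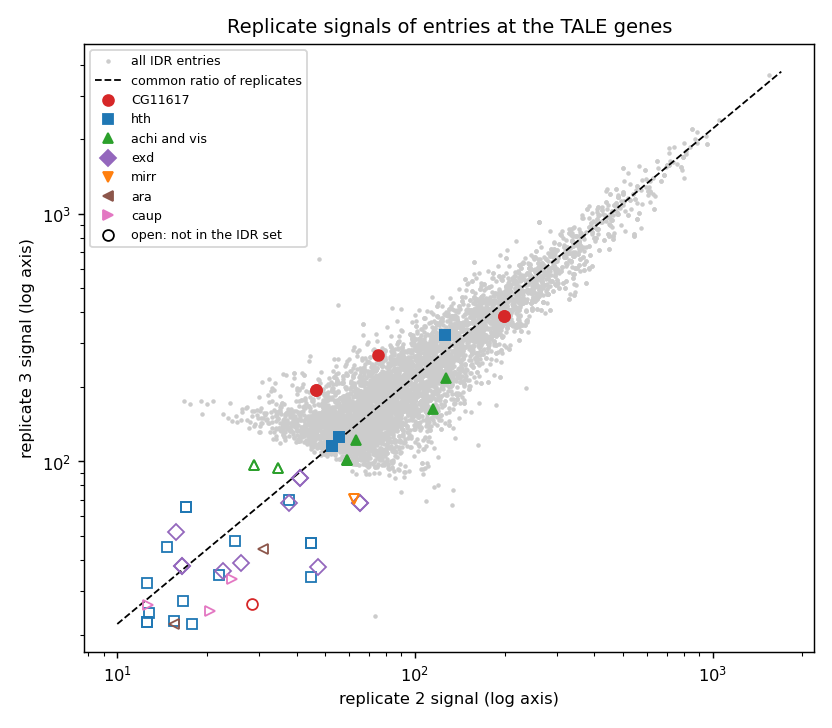
Replicate 2 signal (horizontal, log axis) is set against replicate 3 signal (vertical, log axis) for IDR entries (grey) and for entries at the TALE genes (coloured by gene, open where not in the IDR set). The dashed line is the common ratio of 2.21. The CG11617 promoter entries lie above the line, the filled achi and vis entries lie below it, and the mirr promoter lies at 62.5 and 70.3.

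CG11617, the gene of the tagged protein, lies on the minus strand of 2L from 204743 to 207297 (FBgn0031232) and has 2 TSSs, at 207297 and 206797. Both carried an IDR entry. The first, at 2L 207168 to 207501, had its summit at 207367, 70 bp upstream of the outer TSS, with a pooled signal of 330.3 at rank 2037. It had a signal of 75.1 (rank 3575) in replicate 2 and 269.6 (rank 1547) in replicate 3. This summit lies in the 5' UTR of the neighbour Tbc1d15-17, whose name places it among regulators of Rab GTPases, and is 39 bp from a TSS of that gene. The promoter is shared, so position does not tell which gene the entry belongs to.

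The second CG11617 entry, at 2L 206470 to 206977, had its summit at 206576, in an intron 221 bp downstream of the inner TSS. Its pooled signal was 243 at rank 3251, with 46.5 (rank 7100) in replicate 2 and 194 (rank 2605) in replicate 3. Both promoter entries were thus relatively higher in replicate 3, by 0.70 and 0.92 above the common shift on the log2 scale. Only 5.31% and 2.41% of IDR entries had a higher ratio. How much of this locus the transgene carries is not stated, and the part of extra copies in these entries was not tested.

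The sequences at the 2 CG11617 summits are shown because each holds TGACA, the core recognised by MEIS and TGIF proteins. Searched on both strands were TGACAG and its core TGACA for MEIS and TGIF proteins, and TGATTNAT for exd with Hox proteins. Also searched were ACANNTGT and its kin TAACA for Iroquois proteins and the general homeodomain core TAATTA. Capitals mark any match, and each match to TGACAG counts for TGACA as well. The reference sequence (RefSeq, Release 6) is given on the plus strand, for the intronic summit with 50 bases on each side at chr2L:206526-206626 and, where the window enters a UTR, for 25 bases around each match, at chr2L:207340-207364 and chr2L:207396-207420.
CG11617 intron: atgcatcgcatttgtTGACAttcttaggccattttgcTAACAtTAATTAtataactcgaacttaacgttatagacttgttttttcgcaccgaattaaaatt
CG11617 outer TSS, first match: gatggaaaaaTGTCAcggaatgtgg
CG11617 outer TSS, second match: tacaaaacgcTGACAtgtaaaattt

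The intronic window of CG11617 also held TAACA and TAATTA. Its GC content was 30.7%, and that of the outer summit 41.6%, against a median of 36.6% over all IDR summits. TGACA was found at 15.0% of all IDR summits in windows of the same length, TAACA at 24.8% and TAATTA at 9.61%. A match is a description of letters in a window and names no bound factor.

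A further IDR entry in the CG11617 locus was the strongest of any at the 8 genes. It lay 3118 bp downstream of the inner TSS, at 2L 203503 to 203859 with its summit at 203679, and had a pooled signal of 596 at rank 733. Replicate 2 gave 198 (rank 694) and replicate 3 gave 388 (rank 833), a ratio of -0.17 relative to the common shift on the log2 scale. Its summit is 100 bp upstream of the TSS of mRpL10, a protein of the mitochondrial ribosome. The window there held none of the 6 motifs. By position this entry is a promoter entry of mRpL10.

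The gene hth lies on the minus strand of 3R from 10507561 to 10639568 (FBgn0001235), the longest of the 8 genes at 132008 bp, with TSSs at 10639568 and 10614276. It held 4 IDR entries and 31 pooled entries in its locus. With the 5777 highest entries of replicate 2 in place of the IDR set it held 2, and with those of replicate 3 it held 4. The strongest was a pair of overlapping entries with the same bounds, at 3R 10642996 to 10643592. Their summits were 3713 and 3928 bp upstream of the outer TSS and their pooled signals 448 (rank 1228) and 188 (rank 4717). Both overlap the same replicate entries, with 126 (rank 1592) in replicate 2 and 324 (rank 1138) in replicate 3. They lie in an exon of the antisense RNA gene asRNA:CR44018, and the nearest protein-coding TSS is that of hth. No IDR summit lay within 500 bp of the outer hth TSS itself.

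The inner hth TSS had a weaker IDR entry. It spanned 3R 10614268 to 10614803 with its summit 260 bp upstream of that TSS, in an intron of the longer transcript. Its pooled signal was 177 at rank 5159, with 55.5 (rank 5651) in replicate 2 and 125 (rank 5016) in replicate 3. The ratio was 0.04 above the common shift, so both replicates placed it alike, in the last part of the IDR set. The remaining IDR entry, at 3R 10520427 to 10520962, lay in an intron 93581 bp downstream of the inner TSS. It had a signal of 178 in the pooled list, with 52.7 and 115.5 for replicates 2 and 3. The nearest coding TSS was not that of hth but that of Cyp12e1, 85906 bp away.

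The sequences of the strongest hth entry and of its inner promoter are shown because they differ in base composition. Within 50 bases of the summit the first holds TGACAG, written as its complement on the plus strand, and the second holds none of the 6 motifs. Within 100 bases the second holds TGACAG too, with 2 matches to TGACA in all and 2 to ACANNTGT, so the contrast in motifs depends on the window. The windows are chr3R:10643231-10643331 and chr3R:10614486-10614586, plus strand.
hth upstream: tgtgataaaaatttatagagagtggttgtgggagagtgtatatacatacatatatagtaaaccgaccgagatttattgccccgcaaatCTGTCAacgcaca
hth inner promoter: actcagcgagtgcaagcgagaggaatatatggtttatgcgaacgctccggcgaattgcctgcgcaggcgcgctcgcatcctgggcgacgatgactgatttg

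The hth upstream summit had a GC content of 37.6% and the inner promoter 57.4%, a value that only 2.49% of IDR summits exceeded. TGACAG was present at 3.08% of all IDR summits. Among the 11 distinct IDR summits at the TALE genes it was found at this 1 alone within 50 bases.

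Most hth entries were weak and intronic. Of the 28 pooled summits in the gene body, 27 lay in introns and 1 in a 5' UTR. The 26 body summits away from a TSS had a median signal of 45.7, from 30.9 to 178, and 24 of them were below 100. The body held 21.2 pooled summits per 100 kb, against 22.4 over the 6 arms, and 1.52 IDR summits per 100 kb, against 4.32. Pooled entries were thus as dense in hth as along the arms, and entries of the IDR set were sparser. They were not spread evenly. A stretch of 24375 bp between the summits at 10616874 and 10641249, which covers most of the first intron of the longer transcript, held no pooled summit between its ends, and no replicate summit other than those of the entry at its lower end. The stretch runs past the outer TSS of the gene.

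**Figure D3:**
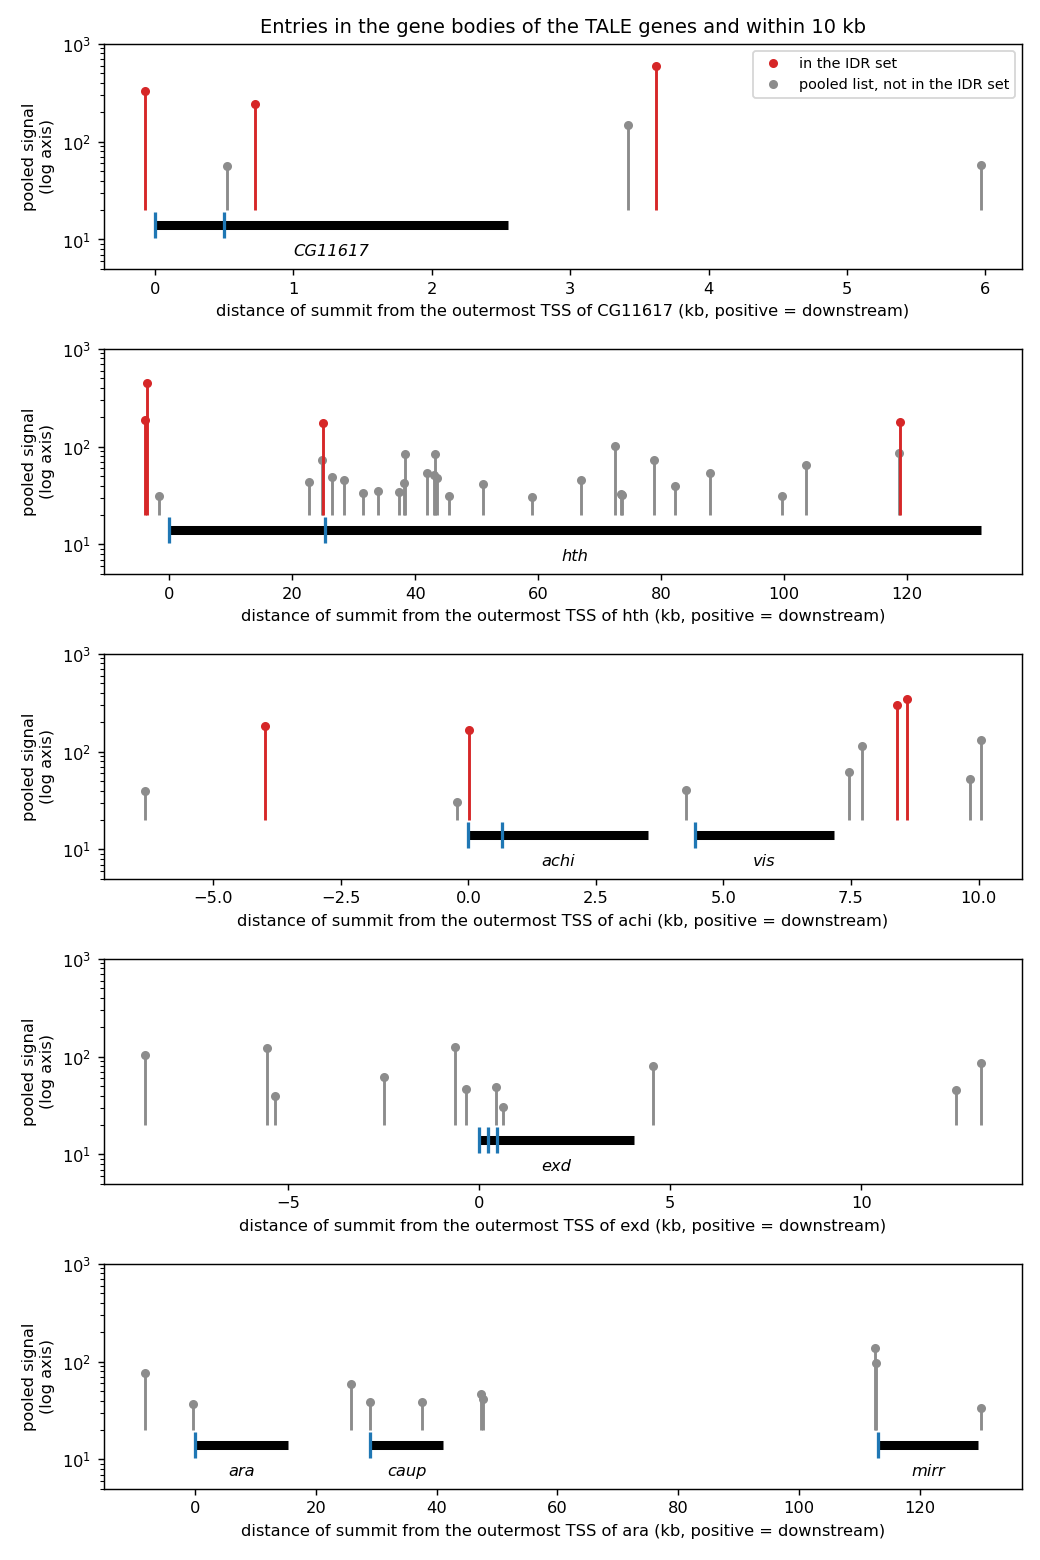
Each panel plots the pooled signal (log axis) of entries against the distance of their summit from the outermost TSS of a gene in kb, with gene bodies as black bars and TSSs as blue ticks. Red entries are in the IDR set. CG11617 has red entries at both TSSs, hth has its highest entry 3713 bp upstream, and the exd and Iroquois panels have none in red.

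The achi and vis genes lie next to each other on the minus strand of 2R, vis from 12507896 to 12510615 (FBgn0033748) and achi from 12511534 to 12515062 (FBgn0033749). An IDR entry sat on the outer achi TSS, at 2R 12514791 to 12515326, with its summit 3 bp inside the 5' UTR. Its pooled signal was 165 at rank 5673 of 5777, with 59.0 (rank 5185) in replicate 2 and 101.1 (rank 6710) in replicate 3. It was among the weakest entries of the set. A pooled entry with its summit 228 bp upstream of the outer achi TSS (30.3, rank 29628) lay 85 bp upstream of the TSS of CG13151. The achi IDR summit is thus also within 500 bp of a TSS of CG13151, although achi has the nearest TSS. Position does not tell which of these genes the entry belongs to. At the vis TSS the pooled list held only an entry of signal 40.2 at rank 23232, 176 bp upstream, which overlapped an entry of replicate 3 (24.3) and none of replicate 2. The 2 genes are near copies in part, and 1534 stretches of 31 bases are shared between them, 43.8% of those in achi and 57.0% of those in vis. The sources used here do not say how reads from such stretches were placed. The lack of IDR and pooled summits inside the 2 bodies, other than that at the achi TSS, is thus uncertain. The achi promoter entry held no repeated 31-base stretch, and the weak vis entry held 5.53%.

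The other IDR entries near achi and vis were closer to other genes. A pair in an intron of fdl, which encodes a hexosaminidase that trims N-glycans, had pooled signals of 345 (127 in replicate 2 and 218 in replicate 3) and 299 (115.1 and 163). They lay 4158 and 3954 bp from the vis TSS and 876 and 672 bp from that of fdl. The last, with a signal of 181 (63.5 in replicate 2 and 122 in replicate 3), lay 120 bp upstream of CG8569. Its replicate 2 entry had its summit 31 bp upstream of the TSS of another gene, CG8818. Position does not tell which of these 2 genes the entry belongs to. All 4 IDR entries in the achi and vis loci had a ratio below the common shift, from -0.64 to -0.20 on the log2 scale.

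The Iroquois genes had no IDR entry in their loci. They lie on the plus strand of 3L, ara from 12580672 to 12596018 (FBgn0015904), caup from 12609631 to 12621798 (FBgn0015919) and mirr from 12693639 to 12710249 (FBgn0014343). Together they held 10 pooled entries, 2 at ara, 5 at caup and 3 at mirr. From 10 kb before ara to 10 kb after mirr, a span of 149578 bp, there were 17 pooled summits, or 11.4 per 100 kb, against 22.4 over the arms. Replicate 2 alone had 26 there, or 17.4 per 100 kb, and replicate 3 had 14, or 9.36 per 100 kb, also against 22.4. In the body of mirr, replicate 2 had 5 summits, all in introns, and neither the pooled list nor replicate 3 had any. The only IDR summit in this span lay between caup and mirr, outside all 3 loci, at 3L 12653201 to 12653446. It had a pooled signal of 227 at rank 3588, with 70.7 in replicate 2 and 157 in replicate 3, and lay 31537 bp past the end of caup and 40304 bp before mirr, the gene of nearest coding TSS.

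The mirr promoter was the strongest of the 3. Its main entry, at 3L 12692919 to 12693454 with the summit 452 bp upstream, had a pooled signal of 137 at rank 7188, below the lowest IDR signal of 163. Replicate 2 gave 62.5 at rank 4760 and replicate 3 gave 70.3 at rank 10036, a ratio of -0.97 relative to the common shift on the log2 scale. The caup promoter entry had a signal of 38.8 at rank 23940 (20.6 in replicate 2 and 24.9 in replicate 3), with its summit 63 bp upstream. The ara entry had a signal of 36.9 at rank 25007 (15.5 and 22.1 in replicates 2 and 3), with its summit 314 bp upstream. By rank the caup entry stood at 17474 in replicate 2 and 26117 in replicate 3, and the ara entry at 23088 and 28973, so both stood lower in replicate 3.

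The sequences at the mirr and caup promoter summits, chr3L:12693137-12693237 and chr3L:12609518-12609618 on the plus strand, are shown because the weaker one holds the motif. The caup window holds TGACAG as its complement, and the mirr window holds none of the 6 motifs. ACANNTGT was in neither.
mirr promoter: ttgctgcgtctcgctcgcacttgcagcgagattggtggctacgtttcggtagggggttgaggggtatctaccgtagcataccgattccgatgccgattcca
caup promoter: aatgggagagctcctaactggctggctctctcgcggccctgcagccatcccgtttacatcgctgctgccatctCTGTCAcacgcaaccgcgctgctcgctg

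The gene exd lies on the plus strand of X from 15992468 to 15996509 (FBgn0000611), with TSSs at 15992468, 15992700 and 15992936. No IDR entry lay in its locus, although the locus held 11 pooled entries, 45.8 per 100 kb against 22.4 over the arms. Of the 11, only 2 had exd as the gene of nearest coding TSS. The strongest at exd itself had its summit 32 bp upstream of the inner TSS, with a signal of 48.4 at rank 19889 (16.5 in replicate 2 and 37.9 in replicate 3). The highest in the locus, 126 (65.4 in replicate 2 and 67.8 in replicate 3), lay 624 bp upstream of the outer exd TSS, in the 5' UTR of eIF5, a translation initiation factor, and of CG46312. The next, 123 (41.1 and 85.4 in replicates 2 and 3), lay 114 bp upstream of ND-20, a subunit of respiratory complex I. The 25 bases at chrX:15992911-15992935, next to the inner TSS of exd, are shown because they hold ACANNTGT.
exd inner TSS: acatacgtACAAGTGTatgtatgtg

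Many summits in these loci were nearer to the TSS of another gene. Of the 11 distinct IDR summits, 5 had a TALE gene as the gene of nearest coding TSS and 6 another gene. The 6 include the shared promoter at the outer CG11617 TSS and the summit deep in an hth intron. Nearest TSS thus does not tell which gene such an entry belongs to. Of the 69 distinct pooled summits, 44 were nearest to a TALE gene and 25 to another. The union of the 8 loci held 3.40 IDR summits per 100 kb, against 4.32 over the arms, and 21.3 pooled summits per 100 kb, against 22.4. The 69 entries had a median pooled signal of 54.4, against 66.8 over the whole list. A summit in the gene body itself was found for 3 of 8 genes in the IDR set, against 15.9% of all genes, and for 5 of 8 in the pooled list, against 45.8%. The 3 were CG11617, achi and hth, with lengths of 2555, 3529 and 132008 bp. The body shares of all genes take no account of gene length, so no excess is read from them. At CG11617 and achi the IDR body summit is a promoter summit already counted, and that of achi lies 3 bp inside the gene.

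**Figure D4:**
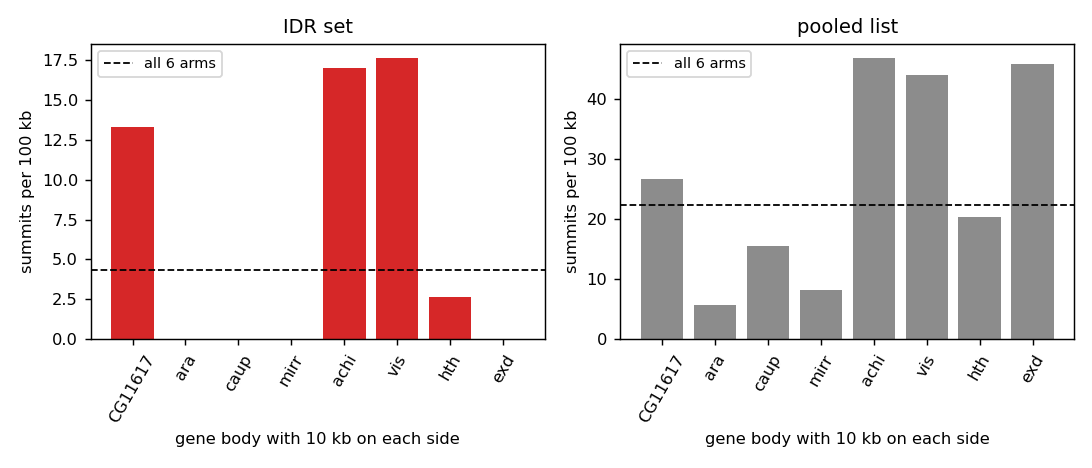
Bars give the summits per 100 kb of each gene body with 10 kb on each side, for the IDR set (left) and the pooled list (right), and dashed lines give the value over all 6 arms, 4.32 and 22.4. CG11617, achi and vis stand above the line in the IDR set, and the bars of achi and vis count the same 4 summits. The Iroquois genes and exd are at 0 there, and ara has the lowest bar in the pooled list.

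Each of the 6 motifs was found within 50 bases at 1 to 3 of the 11 IDR summits. TGACA was found at 3 of the 11 (27.3%), against 15.0% of all IDR summits. TGACAG was found at 1, against 3.08%, and ACANNTGT at 1, against 4.99%. TGATTNAT was found at 1, the achi promoter, against 2.58%. TAACA and TAATTA were each found at 2, against 24.8% and 9.61%. Over the 69 pooled summits the shares were 18.8% for TGACA, against 15.3% of all pooled summits, and 15.9% for TAACA, against 20.4%. They were 4.35% for TGACAG, against 3.46%, and 2.90% for TGATTNAT, against 2.77%. ACANNTGT was at 5.80%, against 4.87%, and TAATTA at 7.25%, against 6.75%. With 11 summits a single match moves a share by several points, so these counts describe the windows and nothing more.

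Genes known to act with the TALE proteins were also counted at promoters, against the same 30.0% of all genes in the IDR set and 61.6% in the pooled list. None of the 8 Hox genes had an IDR promoter entry, and 5 had a pooled entry, of which Dfd had the highest signal, 57.0. Of 10 appendage and eye genes studied with hth and exd, 2 had an IDR entry and 8 a pooled entry. The gene so, which acts in eye determination, had a pooled value of 232, with 82.8 and 153 for replicates 2 and 3. Dll, which specifies distal limbs, had a pooled value of 206, with 33.1 and 176 for replicates 2 and 3. Of 15 patterning genes linked to the Iroquois genes, 2 had an IDR entry and 9 a pooled entry. The gene emc, whose product inhibits proneural proteins, had a pooled value of 336, with 132 and 201.5 for replicates 2 and 3. The gene ush, whose product is a cofactor of the GATA protein pnr, had 279.9, with 82.6 and 222. None of the 8 matched testis genes had an IDR promoter entry, and 1, mia, had a pooled entry (67.6). These include aly and comr, which act with achi and vis in spermatocytes.

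The promoter entries of CG11617, achi and hth were set beside those of 4166 genes by their log2 signals in the 2 replicates. The nearest to CG11617 were atos (74.9 in replicate 2 and 273 in replicate 3, a distance of 0.02) and cN-IIIB (73.8 and 265, a distance of 0.04). The nearest to achi were dysf (58.7 and 101.7, a distance of 0.01) and CG30496 (58.5 and 102.8, a distance of 0.03). The nearest to hth were CG11920 and shams, which share an entry (55.6 and 126, a distance of 0.004). The likeness is one of level in each of the 2 replicates. In the pooled list the level was 330.3 at CG11617, against 262.6 at atos and 340.5 at cN-IIIB.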

How the data were processed

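Per the notes deposited with the files, entries with background were called on the alignment of each replicate and on the pooled alignments, with a control alignment, and an optimal set was derived from these lists by an IDR filter. The authors deposited a signal value per entry, which was used only to describe and rank entries within a list. The deposited −log10 q values are capped at 1 value in each list and were used only to count capped entries. Neither aligner nor caller is given in the sources used here. The dm6 lists were placed on Ensembl gene models (19253 distinct TSSs of protein-coding genes) and the Release 6 genome with Python 3.11.15 and pandas 2.3.3. Every dm6 entry lay within the arm lengths of that genome. The dm3 lists were not used. Motifs were searched within 50 bases on each side of summits. Overlap means at least 1 bp. Gene assignment was tested on simulated summits. Members, lists and motifs were chosen with earlier results of these data known. Named are the 8 genes, the partner genes with an IDR promoter entry, the 2 genes nearest to each bound member in replicate signal, and the genes of nearest TSS at described entries. Other genes, such as Dfd and mia, were named after their values were seen. The gene rye matched no single annotated gene and was left out. A comparison of homeodomains was planned and not made, since no protein table was used here.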

Additional observations from a re-analysis of the deposited data

How the results depend on the processing

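With only the IDR entries above the median of the set in signal, 1 member, CG11617, kept a promoter entry, against 17.9% of all genes. In that subset 5 distinct summits lay in the loci. With motif windows of 100 bases on each side, TGACAG was found at 2 of the 11 IDR summits, both at hth. Over all IDR summits its share was then 6.44%. TGACA was at 5 of the 11, against 27.6%, ACANNTGT at 3, against 10.3%, and TAACA at 7, against 42.9%. TGATTNAT stayed at 1, against 5.14%, and TAATTA at 2, against 17.0%. Wider windows hold more of any motif, and the shares over all IDR summits rose as well. Without replicate 2, 2 members had a promoter entry, against 30.3% of all genes, and 4 had an entry in the locus, against 66.7%. Without replicate 3, 4 members had a promoter entry, against 28.1%, and 6 had an entry in the locus, against 65.4%. In both cases 10 distinct summits lay in the loci. A promoter window of 250 bp left 2 members in the IDR set, CG11617 and achi, against 25.4% of all genes. It left 6 in the pooled list, against 53.9%. A promoter window of 1000 bp, flanks of 5 and 20 kb, merging of overlapping entries and any overlap with the promoter window moved the counts by less than 1.5 times. The hth summit is 260 bp from the TSS. No paired analysis was possible because there was 1 group. Depth is unknown, so a weak entry cannot be told from one that deeper sequencing would have raised.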
